A study of Mus musculus with 2 samples.

Results

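The 9 transcription factors that define the enteroendocrine programme, Neurog3, Neurod1, Isl1, Pax4, Pax6, Nkx2-2, Insm1, Rfx6 and Fev, were read in single cells of jejunal crypts from 375KO mice. They were taken by name, as 9 of the 27998 genes in the matrices, and all 9 were detected in both libraries. The mice carry a CRISPR/Cas9 deletion of miR-375 in the whole body, on a background labelled C57BL6/2J and described as B6 albino in the protocol. The 2 libraries come from 2 male mice aged 12 months, 1 library each, named replicate 1 and replicate 2, and form 1 group. The deletion was made in FVB x B62J F1 embryos and backcrossed to B6 albino. Every cell therefore lacks miR-375 from development onwards. Wild-type libraries were not analysed here, so no value below measures an effect of the deletion.

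Enteroendocrine cells (EEC) are the hormone-secreting cells of the gut lining. They arise from secretory progenitors, in which the Notch ligand Dll1 and the factor Atoh1 mark exit from the absorptive path. Neurog3 is switched on briefly in the committed precursor and is required for all EEC. It is followed by Neurod1, Insm1, Nkx2-2, Rfx6, Pax4 and Pax6, and then by factors of some hormone lineages but not others. Among these are Isl1 and Lmx1a. The annotation of the authors names 10 cell types, of which 9 are epithelial and 1 is the intraepithelial lymphocyte (IEL), a T cell that lives among the epithelial cells.

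Replicate 1 held 2082 annotated cells with 44017234 UMIs, and replicate 2 held 1193 cells with 22163354 UMIs. A UMI, or unique molecular identifier, stands for 1 captured RNA molecule, and since 3′ ends were counted the values are not divided by gene length. EEC were few, with 54 cells in replicate 1 and 20 in replicate 2, at medians of 7399.5 and 9389.5 UMIs per cell. Secretory progenitors numbered 31 and 19, at medians of 13081 and 10628 UMIs. The libraries shared 0 cell barcodes. All 6 EEC markers were highest in EEC in both libraries. The label of the secretory progenitors was less clear, since 2 of their 5 markers, Dll1 and Hes6, were highest there in both libraries. Atoh1 was highest in goblet cells, and the summed level of 6 goblet markers was 15682 CPM (UMIs per 1000000 UMIs of the class) in the progenitors of replicate 1 and 25133 in those of replicate 2. The same goblet sum was 6635 and 2145 CPM in EEC. Cells of more than 20000 UMIs held 39.9% of the EEC UMIs of replicate 1 (6 cells) and 9.95% of those of replicate 2 (1 cell), and 43.4% (8 cells) and 10.5% (1 cell) of the progenitor UMIs. IEL markers gave 2 UMIs in the EEC of replicate 1 and 272 in those of replicate 2, of which 140 lay in 1 cell. Calls without these cells, and levels that moved by more than 1.5 times, are given beside the tests.

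The promoters of 4 members are shown as examples of different patterns, and not as the members that best set the annotated classes apart. Neurog3 is the initiator, Nkx2-2 was present in both classes, Isl1 split the EEC, and Fev was found in EEC but in 0 secretory progenitors. The sequences are the 250 bases before the RefSeq transcript start on GRCm38.p6, read 5′ to 3′ on the strand of the gene. Capitals mark each CANNTG match, the E-box letters that Neurog3, Neurod1 and other basic helix-loop-helix factors bind. Neurog3 lies at chr10:62132840-62133089 on the plus strand, Nkx2-2 at chr2:147186403-147186652, Isl1 at chr13:116309689-116309938 and Fev at chr1:74885409-74885658, all 3 on the minus strand.
Neurog3: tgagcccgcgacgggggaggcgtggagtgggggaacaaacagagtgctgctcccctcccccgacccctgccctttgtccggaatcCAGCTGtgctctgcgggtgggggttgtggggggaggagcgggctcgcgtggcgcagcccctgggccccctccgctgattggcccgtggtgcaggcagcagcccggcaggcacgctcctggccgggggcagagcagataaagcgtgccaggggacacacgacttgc
Nkx2-2: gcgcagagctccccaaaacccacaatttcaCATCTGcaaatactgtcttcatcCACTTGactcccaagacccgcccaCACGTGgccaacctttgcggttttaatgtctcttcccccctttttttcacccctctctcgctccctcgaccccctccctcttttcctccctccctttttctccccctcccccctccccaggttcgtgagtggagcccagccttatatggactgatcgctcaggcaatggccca
Isl1: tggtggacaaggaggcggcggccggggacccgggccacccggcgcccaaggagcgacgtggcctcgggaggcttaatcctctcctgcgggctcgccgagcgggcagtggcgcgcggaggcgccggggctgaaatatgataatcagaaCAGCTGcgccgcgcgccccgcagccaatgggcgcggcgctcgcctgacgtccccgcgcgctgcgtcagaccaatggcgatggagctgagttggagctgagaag
Fev: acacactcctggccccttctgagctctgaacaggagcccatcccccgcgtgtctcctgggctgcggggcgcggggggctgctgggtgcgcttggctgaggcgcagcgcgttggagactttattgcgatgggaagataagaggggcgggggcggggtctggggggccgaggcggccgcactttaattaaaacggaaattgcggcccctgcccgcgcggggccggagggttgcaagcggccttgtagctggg
Neurog3 and Isl1 each held 1 match of the same letters, with first bases at -165 and -103 relative to the start. Nkx2-2 held 3 matches, at -220, -197 and -173, and Fev held 0. RefSeq windows from 250 bases before to 50 after the start were available for 7 of the 9 members, in 8 promoters, because Pax6 has a pair of starts. Pax4 and Insm1 are named only. CANNTG, whose letters read the same on both strands, was found in 6 of the 8 windows and in 72.3% of all 32851 windows. The narrower CAGATG, searched on both strands and contained in CANNTG, was found in 1 of the 8, that of Nkx2-2, and in 17.2% of all windows. A match is a description of the letters and not of binding.

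Neurog3, the initiator, was the 1 member with a mean level above its EEC level in the secretory progenitors. Its level there was 330 CPM in replicate 1 (95% interval 280 to 387) and 558 CPM in replicate 2 (464 to 665). In EEC it was 124 CPM in replicate 1 (97.9 to 155) and 427 CPM in replicate 2. Both libraries were thus lower in EEC, and the EEC of replicate 2 lay above the progenitors of replicate 1, so the ranges of the classes overlapped. The share of cells with at least 1 Neurog3 UMI was close in the classes, at 9 of 31 and 5 of 19 progenitors and 13 of 54 and 5 of 20 EEC. The cells that held it differed in amount, with 16.9 and 25 UMIs per positive progenitor against 5.92 and 18.4 per positive EEC. A single progenitor of replicate 2 held 58 of the 125 Neurog3 UMIs of its class. The lower EEC level in that mouse depended on this 1 cell.

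Insm1, a zinc finger factor that acts with and after Neurog3, and Nkx2-2, a homeodomain factor, were present in both classes at higher levels in EEC. Insm1 was at 343 and 311 CPM in EEC and at 130 and 183 CPM in secretory progenitors, in 13 of 31 and 7 of 19 progenitors. The EEC level of Insm1 was 327 ± 22.7 CPM (mean ± SD, n = 2 mice) and that of progenitors 157 ± 37.2, so the classes did not overlap. Nkx2-2 was at 169 and 288 CPM in EEC and at 49.9 and 49.1 CPM in progenitors, in 8 of 31 and 5 of 19 of them. It too stood apart between the classes in both mice.

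Neurod1, a basic helix-loop-helix factor downstream of Neurog3, and Rfx6, a winged-helix factor needed for several hormone lineages, were mainly in EEC. Neurod1 was at 445 and 622 CPM in EEC, in 50 of 54 and 18 of 20 cells, and at 39.1 and 4.46 CPM in progenitors, where replicate 2 had 1 UMI. Rfx6 was at 153 and 149 CPM in EEC and at 13.0 and 13.4 CPM in progenitors. The EEC mean of Rfx6 was 151 ± 3.19 CPM (SD, n = 2), and it was 231 and 181 CPM without the cells of more than 20000 UMIs or with IEL markers.

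The paired-box factors differed from each other. Pax4, which is known for the choice between endocrine fates, was the least abundant member in EEC, at 38.7 and 51.1 CPM and in 14 of 54 and 4 of 20 cells. It was at 10.9 and 13.4 CPM in progenitors, from 5 and 3 UMIs. Pax6, a regulator of hormone genes, was at 216 and 255 CPM in EEC and at 0 and 1 UMI in progenitors.

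Isl1, a LIM-homeodomain factor, and Fev, an ETS factor known from serotonin neurons, were high in EEC. Isl1 was at 480 and 887 CPM in EEC, and Fev at 164 and 585 CPM. In progenitors Isl1 had 18 UMIs in 4 cells of replicate 1 and 0 in replicate 2, and Fev had 0 of 31 and 0 of 19 cells, which at 3 counts allows shares of up to 9.68% and 15.8%. The SD of the EEC level was 287 CPM for Isl1 around a mean of 683 and 297 CPM for Fev around a mean of 375 (n = 2 mice each). That of Neurog3 was 214 CPM around a mean of 276, so the order of these members within EEC is not fixed beyond the spread. Over the 9 means in EEC, Isl1 and Neurod1 led, Fev, Insm1, Neurog3, Pax6 and Nkx2-2 followed, and Rfx6 and Pax4 were last.

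**Figure D1:**
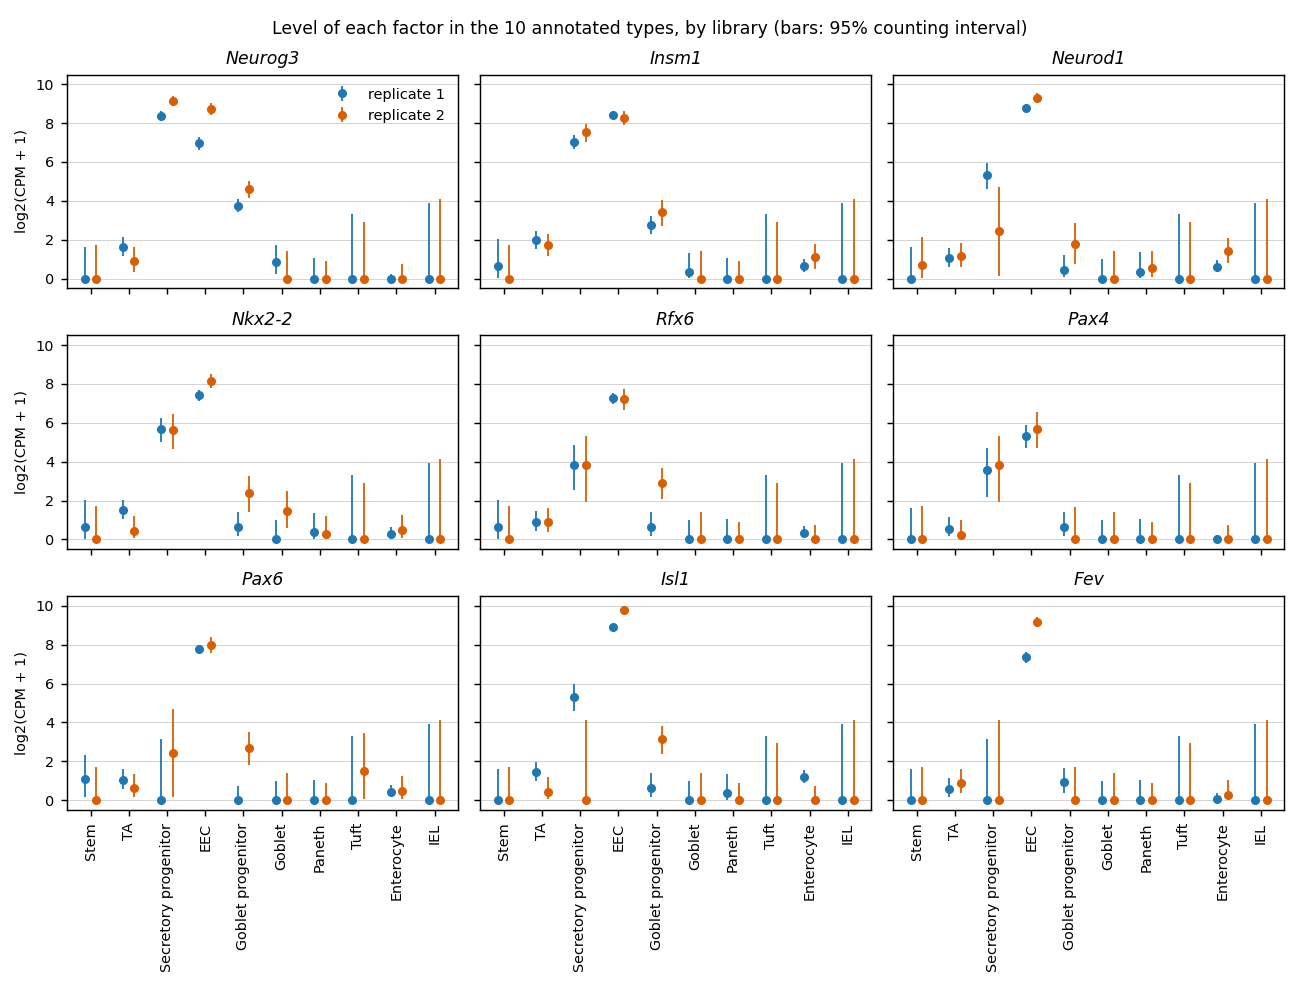
Level of each of the 9 factors, as log2(CPM + 1), in the 10 annotated cell types, with 1 point per mouse and exact Poisson 95% intervals, which cover counting error only. EEC hold the highest mean of 8 factors, and secretory progenitors hold that of Neurog3, at 444 CPM against 276 in EEC.

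Outside EEC and secretory progenitors the factors were rare. These 2 classes held from 68.6% (Rfx6, replicate 2) to 95.5% (Fev, replicate 2) of the UMIs of a factor. Enterocytes, which should lack the programme, had 0 of 931 and 0 of 382 cells with Neurog3, which allows shares of up to 0.322% and 0.785%, at medians of 16975 and 13405 UMIs per cell, deeper than EEC. Each of the other factors was found in 0 to 7 enterocytes of a library, at most 0.752% of cells. The shares in EEC and in progenitors with Neurog3, Nkx2-2 or Insm1 are thus far above this background. In goblet progenitors Neurog3 gave 67 UMIs in 7 of 162 cells (12.5 CPM) and 39 UMIs in 7 of 84 cells (23.4 CPM), the highest level of a member outside the named classes. Tuft cells and IEL gave 0 UMIs of every factor in both libraries, apart from 1 Pax6 UMI in a tuft cell of replicate 2. In 40 and 38 tuft cells a count of 0 allows shares of up to 7.5% and 7.89%, or 7.25 and 5.36 CPM. In 50 and 18 IEL it allows shares of up to 6% and 16.7%, or 11.4 and 13.3 CPM. Transit-amplifying (TA) cells with 3 or more factors numbered 4 of 320 and 4 of 323, and their median depths were 53059 and 20545.5 UMIs against 20811 and 16966 for all TA cells. The part of depth and of doublets in these cells was not tested.

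The factors were tested in EEC against secretory progenitors with edgeR's quasi-likelihood test on UMI counts summed per mouse and cell type, with p values adjusted over all 11013 genes tested. Of the 9 members, 6 were higher in EEC, 0 were lower and 3 did not pass. Over all genes, 9.39% passed, 5.36% as higher in EEC and 4.03% as lower. Neurod1 was higher by 4.03 on the log2 scale (SE 0.40, edgeR adjusted p = 1.08e-06) and Rfx6 by 3.34 (SE 0.65, edgeR adjusted p = 0.00219). Nkx2-2 was higher by 1.91 (SE 0.47, edgeR adjusted p = 0.0146) and Insm1 by 0.96 (SE 0.25, edgeR adjusted p = 0.0123). Pax6 (edgeR adjusted p = 0.00276) and Fev (edgeR adjusted p = 3.57e-08) were also higher. Their fitted folds rest on a class at or near 0 and are given as ratios of counts instead. The members that did not pass were Isl1 at 4.44 (SE 1.08, edgeR adjusted p = 0.0743), Pax4 at 1.70 (SE 0.72, edgeR adjusted p = 0.153) and Neurog3 at -1.05 (SE 0.41, edgeR adjusted p = 0.193). Since the annotated classes were themselves clustered from these cells, each p value measures their separation and is no test of an independent grouping.

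The calls depended on the fit for most members. Neurod1 passed in the main fit and in all 9 alternatives, while Insm1 and Nkx2-2 lost their calls without the mouse as a term (edgeR adjusted p = 0.233 and 0.149) and under DESeq2 (adjusted p = 0.077 and 0.386). Rfx6 lost its call without the mouse as a term (edgeR adjusted p = 0.0573), and Pax6 and Fev lost theirs under DESeq2 (adjusted p = 0.0906 and 0.309). Neurog3 was lower in EEC in all 9 alternatives and passed in 2, with no filter on low counts (edgeR adjusted p = 3.38e-05) and with cells thinned to 5000 UMIs (edgeR adjusted p = 0.00648). Each of the 9 kept the progenitor of replicate 2 that held 58 Neurog3 UMIs. Isl1 passed in the same 2 alternatives (edgeR adjusted p = 6.71e-42 and 1.20e-17). Without the cells of more than 20000 UMIs or with 10 or more IEL-marker UMIs, 8 of the 9 were higher in EEC, Isl1 (edgeR adjusted p = 0.0366) and Pax4 (edgeR adjusted p = 0.0267) included, an alternative chosen after seeing the data. Without those cells the EEC level of replicate 1 was higher for all 9 members, and it went from 343 to 531 CPM for Insm1, from 480 to 772 for Isl1, from 38.7 to 61.7 for Pax4, from 164 to 255 for Fev and from 153 to 231 for Rfx6. In replicate 2 the EEC levels without them were 362 CPM for Insm1, 1024 for Isl1, 68.7 for Pax4, 568 for Fev and 181 for Rfx6.

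The ratio of the EEC level to the progenitor level was taken within each mouse. The ratio of Neurog3 was 0.376 in replicate 1 (95% counting interval 0.282 to 0.498) and 0.766 in replicate 2 (0.578 to 1.01). Insm1 was 2.63 (1.97 to 3.57) and 1.70 (1.14 to 2.57), Nkx2-2 was 3.39 (2.14 to 5.57) and 5.86 (3.06 to 12.3), and Pax4 was 3.56 (1.33 to 11.9) and 3.81 (1.01 to 21.3). The intervals of Insm1, Nkx2-2 and Pax4 overlapped one another in replicate 1, while in replicate 2 the interval of Insm1 lay below that of Nkx2-2. All 5 Pax4 UMIs of the replicate 1 progenitors lay in 1 cell of more than 20000 UMIs, and without such cells Pax4 was at 0 UMIs there and its fitted log2 fold change went from 1.70 to 3.10. Rfx6 was 11.7 (5.20 to 32.8) and 11.1 (3.47 to 56.6), and Neurod1 was 11.4 (7.07 to 19.5) and 139 (24.6 to 5546), the latter against 1 UMI. Isl1 was 12.3 (7.64 to 21.0) in replicate 1 and at least 66.2-fold higher in replicate 2. Pax6 was at least 33.1-fold higher in replicate 1 and 57.2 (9.85 to 2300) in replicate 2, against 1 UMI. Fev was at least 25.2-fold and at least 43.7-fold higher. These bounds set a count of 0 at 3 counts of the library's class total. The interval of Neurog3 lay below 1 in replicate 1 and reached 1.01 in replicate 2.

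**Figure D2:**
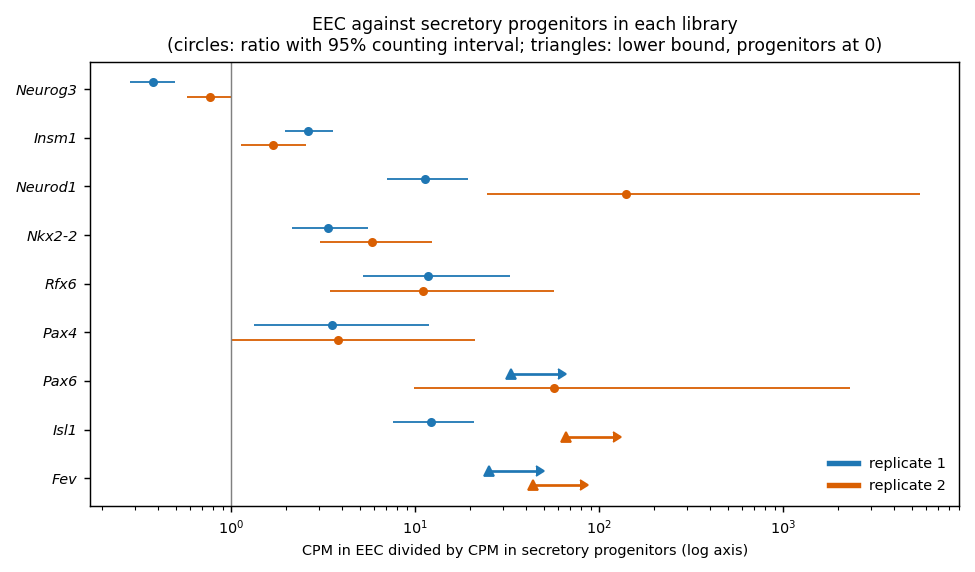
Ratio of the level in EEC to that in secretory progenitors (log axis) for each factor and mouse, with exact 95% counting intervals, where triangles with arrows mark lower bounds where the progenitors had 0 UMIs. Neurog3 lies below 1 in both mice, at 0.376 and 0.766, and the other 8 factors lie above 1. The Neurog3 value of replicate 2 depends on 1 progenitor with 58 of the 125 UMIs of its class.

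Against the other 7 epithelial types, all 9 members were higher in EEC, where 22.4% of all genes passed, 13.7% as higher and 8.63% as lower. In secretory progenitors 6 of the 9 were higher than in the same 7 types, and Isl1, Pax6 and Fev did not pass, where 5.82% of all genes passed, 3.85% as higher and 1.97% as lower. Since the members were named for their role in EEC, these counts describe the classes. In pooled counts Neurog3 was 160- and 273-fold higher in progenitors than in the 7 types and 60.2- and 209-fold higher in EEC. Insm1 was 80.6- and 112-fold higher in progenitors, and Nkx2-2 was 85.3- and 66.0-fold higher. The progenitor class thus held Neurog3, Insm1 and Nkx2-2 at levels well above the 7 types, while Fev was at 0 UMIs there and Pax6 at 0 and 1.

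The summed levels of the progenitor class came from a minority of its cells. A median of 0 factors was detected per progenitor in both libraries, against 6 and 6.5 per EEC. All 54 EEC of replicate 1 and 19 of 20 of replicate 2 held 3 or more factors, as did 8 of 31 and 5 of 19 progenitors. After each cell was thinned to 5000 UMIs, the median was 5 and 6 factors per EEC and remained 0 per progenitor. Progenitors were not the shallower class.

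**Figure D3:**
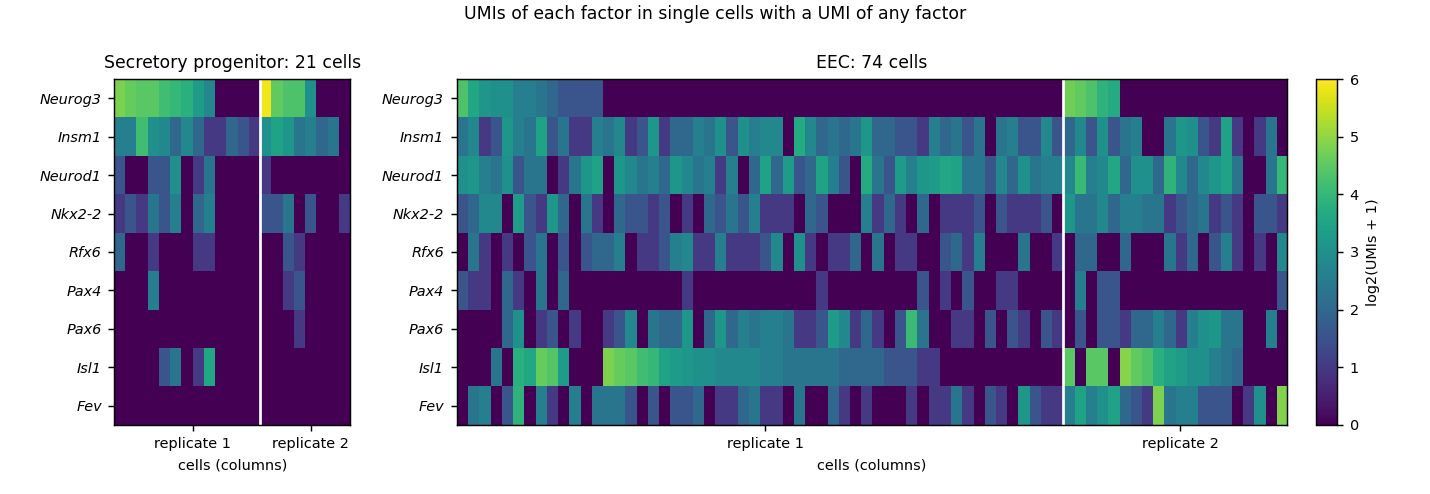
UMIs of each factor, as log2(UMIs + 1) in colour, in single EEC and secretory progenitors of each mouse, with cells as columns and factors as rows. Cells with a UMI of any factor are shown, all 74 EEC and 21 of the 50 progenitors. EEC hold a median of 6 and 6.5 factors, while the factor UMIs of the progenitors are gathered in a subset of cells, 8 of 31 and 5 of 19 with 3 or more factors.

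The progenitors were then divided by whether they held a Neurog3 UMI, a division made after the values were seen and given as a description. Of the 14 cells with Neurog3 (9 and 5), all 14 held Insm1, against 4 of 22 and 2 of 14 cells without it. Nkx2-2 was in 8 of 9 and 4 of 5 against 0 of 22 and 1 of 14, Neurod1 in 6 and 1 against 0 and 0, and Rfx6 in 4 and 2 against 0 and 0. All UMIs of Neurod1, Rfx6, Isl1, Pax4 and Pax6 in this class lay in the cells with Neurog3. Outside the cells with Neurog3, Insm1 and Nkx2-2 were thus the members that any progenitor held.

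Several other genes gave no UMI in the same 14 cells. Atoh1, which drives all secretory fates, was in 0 of 9 and 0 of 5 cells with Neurog3 and in 15 of 22 and 8 of 14 without. Gfi1, which favours goblet and Paneth fates, was in 0 and 0 against 9 and 2. The goblet gene Clca1 was in 0 and 0 against 7 and 3 cells, and the proliferation gene Top2a in 0 and 0 against 7 and 5. Dll1, the Notch ligand, was in 4 and 3 against 19 and 12. Sox4, a factor upstream of Neurog3, went the other way, at 2478 and 3144 CPM with Neurog3 against 515 and 581 without. Median depth was 12563 and 9855 UMIs with Neurog3 and 13095 and 11046.5 without, so the divided cells were sequenced to a similar depth. With 9 and 5 cells, a count of 0 allows shares of up to 33.3% and 60% of cells. The shares of Atoh1, Gfi1, Clca1 and Top2a without Neurog3 in replicate 2 lay within this limit. So did those of Clca1 and Top2a in replicate 1.

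**Figure D4:**
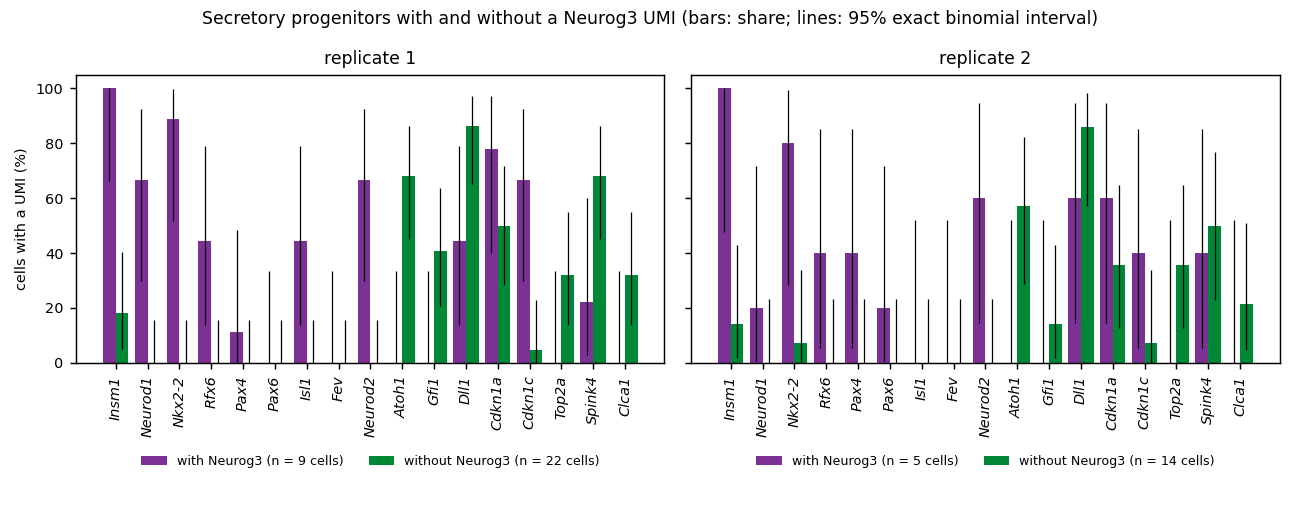
Share of secretory progenitors with at least 1 UMI of each gene, in cells with and without a Neurog3 UMI, for each mouse, with exact binomial 95% intervals. Insm1 is in all 14 cells with Neurog3, and Atoh1 and Gfi1 are in 0 of them.

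Goblet progenitors with Neurog3 numbered 7 in each library. Insm1 was in 4 and 5 of them, against 4 of 155 and 1 of 77 goblet progenitors without Neurog3. Sox4 was at 807 and 569 CPM against 77.5 and 63.7. The goblet mucin Muc2 was in 2 and 2 of the cells with Neurog3, against 147 of 155 and 74 of 77. These cells held Atoh1, in 5 and 3 of 7, unlike the secretory progenitors with Neurog3. In replicate 2 the limit given above for those progenitors exceeds 3 of 7, so the groups are not set apart there. Goblet progenitors were also the deeper class, at medians of 28554.5 and 19683 UMIs per cell against 13081 and 10628 in secretory progenitors. The part of depth in this difference was not tested. The proliferation gene Mki67 was in 13 of the 14, and was not compared with goblet progenitors without Neurog3. The annotation of these 14 cells as goblet progenitors is that of the authors. Muc2 was found in few of them, but it is 1 gene, and the other goblet markers are not given here. The label is therefore not judged.

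Among EEC the members did not vary together. Isl1 divided the class along the line of the serotonin enzyme Tph1, which marks enterochromaffin cells. Of the EEC with a Tph1 UMI, 0 of 15 and 0 of 4 held Isl1, against 36 of 39 and 14 of 16 of the EEC without. A count of 0 allows shares of up to 20% and 75% in 15 and 4 cells. After thinning to 5000 UMIs the counts were 0 of 15 and 0 of 4 against 33 of 38 and 14 of 16, and without the deep or IEL-marker cells 0 cells held both genes, 44 held Isl1 alone and 16 held Tph1 alone.

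The homeodomain factor Lmx1a followed this division. Lmx1a, an activator of Tph1, was in 13 of 15 and 4 of 4 with Tph1 and in 2 of 39 and 0 of 16 without. Over all 74 EEC, Isl1 and Lmx1a were found together in 1 cell, with Isl1 alone in 49, Lmx1a alone in 18 and neither in 6.

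The other members crossed the division to different degrees. Neurod1 was in 15 of 15 and 3 of 4 cells with Tph1 and in 35 of 39 and 15 of 16 without. Fev was in 12 and 4 against 24 and 14 cells, so it was found on both sides. Pax6 was at 73.8 CPM in the pooled cells with Tph1 and at 284 CPM in those without. Pax4 was in 6 of 15 and 3 of 4 with Tph1 and in 8 of 39 and 1 of 16 without. Chga, a granule protein, was at 5064 and 8675 CPM with Tph1 and at 598 and 601 without. These divisions were chosen after the values were seen, and no test was applied to them.

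**Figure D5:**
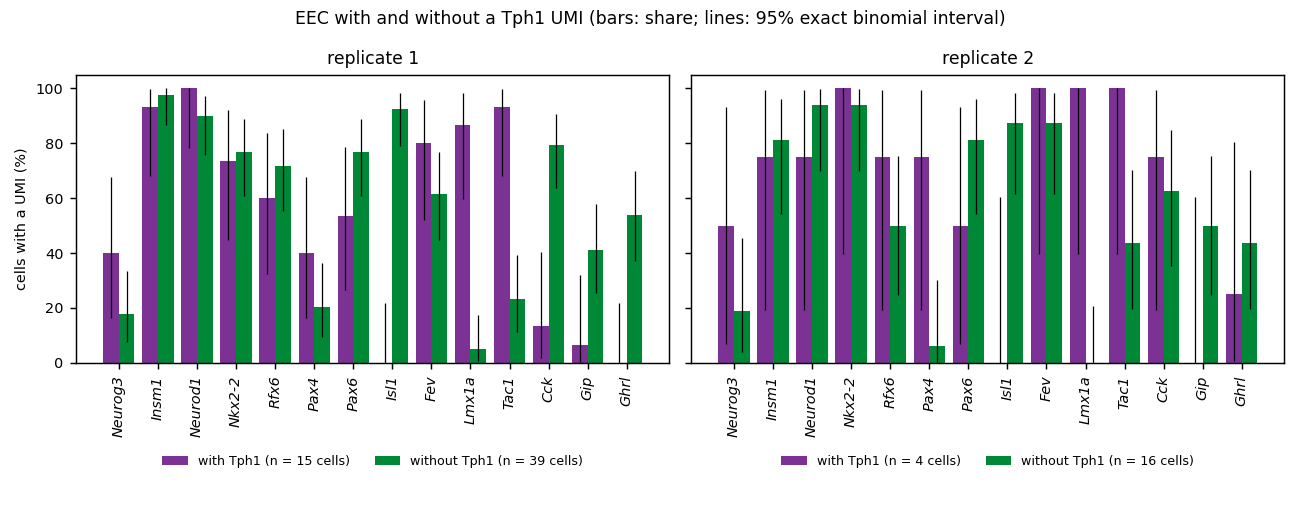
Share of EEC with at least 1 UMI of each gene, in cells with and without a Tph1 UMI, for each mouse, with exact binomial 95% intervals. Isl1 is in 0 of the 19 cells with Tph1, and Lmx1a is in 17 of them.

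By leading hormone, the one with most UMIs in a cell, Isl1 was in all 10 EEC led by Cck, all 17 led by Gip, all 9 led by Ghrl and both led by Sst. It was in 6 of 10 led by Sct and in 1 of 21 led by Tac1, the substance P precursor of enterochromaffin cells. Pax6 was in 17 of 17 Gip cells and in 4 of 9 Ghrl cells. Pax4 was in 10 of the 21 Tac1 cells. Neurog3 was in 0 of the 17 Gip cells and 0 of the 10 Cck cells, in 7 of the 9 Ghrl cells and in 8 of the 21 Tac1 cells.

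EEC with a Neurog3 UMI, 13 and 5 cells, differed in their other factors. Of these 18, 8 held Tph1, and among them 0 held Isl1, 6 held Lmx1a and 8 held Tac1. The other 10 lacked Tph1, and 9 of them held Isl1, 8 Ghrl and 0 Lmx1a. As a whole the EEC with Neurog3 had more Pax4, in 10 of 18 cells at 157 CPM against 8 of 56 cells at 16.1 CPM without Neurog3. Nkx2-2 was at 457 against 142 CPM and Neurod1 at 705 against 442. Pax6 was lower, at 131 against 248 CPM and in 8 of 18 against 45 of 56 cells. The granule protein Scg2 was in 0 of 18 against 29 of 56, and the hormone Sct was at 952 against 12168 CPM. Median depth was 7001.5 UMIs with Neurog3 and 8980.5 without.

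Other genes of the programme were taken from lists. On the upstream and Notch side, 6 of 8 genes were lower in EEC than in secretory progenitors, 0 were higher and 2 did not pass, beside 4.03% of all genes lower, with a median log2 fold change of -2.0 against 0.06 for all genes. Dll1 was at 32.2 and 0 CPM in EEC and 180 and 196 in progenitors, and fell by 3.24 on the log2 scale (SE 0.40, edgeR adjusted p = 3.59e-06). Atoh1 fell by 2.11 (SE 0.44, edgeR adjusted p = 0.00143), Sox4 by 2.09 (SE 0.30, edgeR adjusted p = 0.000355) and Gfi1 by 2.94 (SE 0.95, edgeR adjusted p = 0.0477). Sox9 and Dll4 did not pass, at 70.9 and 65.0 CPM of Sox9 in EEC and 54.3 and 80.3 in progenitors.

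Of 20 downstream or parallel factors, 9 were higher in EEC, 1 was lower and 10 did not pass, beside 5.36% and 4.03% of all genes, with a median log2 fold change of 2.27 against 0.06. Runx1t1 was at 127 and 172 CPM in EEC, Etv1 at 87.0 and 88.2, Lmx1a at 69.3 and 41.8 and Hhex at 48.3 and 18.6, each against 0 UMIs in the progenitors of both mice. Mycl was the 1 factor of this list that fell, by 1.92 (SE 0.45, edgeR adjusted p = 0.00497). Neurod2, a relative of Neurod1, did not pass, at 29.0 and 65.0 CPM in EEC and 30.4 and 71.4 in progenitors.

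All 9 granule and processing genes and all 3 serotonin genes were higher in EEC, as were 4 of 10 hormones, while the other 6 did not pass. Of all genes 5.36% were higher and 4.03% lower. Cck was at 12882 and 21619 CPM in EEC and at 52.1 and 0 in progenitors, Sct at 11132 and 7172 against 67.3 and 129, Tac1 at 1660 and 2135 against 0 and 4.46, and Iapp at 46.7 and 46.4 against 0 and 0. Among the hormones that did not pass, Gip was at 41045 and 82590 CPM in EEC and Gcg at 4445 and 9712, each against 0 UMIs in progenitors (edgeR adjusted p = 0.202 and 0.175). Pyy was at 62.8 and 292 CPM, Sst at 1888 and 0 and Nts at 2154 and 0, also against 0 UMIs, and Ghrl was at 2787 and 8899 against 313 and 0. All 144 Ghrl UMIs of the replicate 1 progenitors lay in 1 of 31 cells. The serotonin enzymes Tph1 and Ddc were at 327 and 144 CPM and at 603 and 450 CPM in EEC, against 0 and 0 for Tph1 and 109 and 75.9 for Ddc. Scg2 was at 429 and 218 CPM, Pcsk1n at 90.2 and 176 and Resp18 at 105 and 121 in EEC, each against 0 UMIs in progenitors. Chgb was at 11918 and 7256 CPM in EEC and at 0 and 4.46 in progenitors. Other granule genes were found in the progenitors of replicate 1, with Chga at 28.2 CPM in 5 of 31 cells and Pcsk1 at 19.5 in 6. Scg5 was at 13.0 CPM in 3 of these cells and Cpe at 10.9 in 2. The EEC levels in that mouse were 2009 CPM for Chga, 259 for Pcsk1, 311 for Scg5 and 881 for Cpe. Granule genes in progenitors were thus absent or at levels far below those of EEC. Against the 7 other types, 0 of the 10 hormones and 1 of the 9 granule genes passed in progenitors. Of 8 cycle genes, beside 4.03% of all genes, 3, Ccnb2, Ube2c and Cdc20, were lower in EEC and 5 did not pass. The 3 cycle inhibitors were higher, with Cdkn1a at 910 and 1894 CPM in EEC against 311 and 89.3, and Cdkn1c at 549 and 622 against 128 and 26.8.

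Across the 20 sums of 10 cell types and 2 mice, the genes outside the 9 members that were most like each member were named by Pearson's r of log2(CPM + 1) among 7337 genes, as a description, since the points share libraries and depth. Of these, Slc39a2 (r = 0.936), Neurod2 (0.932) and Gfra3 (0.932) were closest to Neurog3. Neurod1 was closest to Celf3 (0.990), Isl1 to Cacna2d1 (0.983), Pax6 to Tac1 (0.969), Rfx6 to Rimbp2 (0.989) and Fev to March4 (0.993). Among genes that are no members, Gfra3 led for Pax4 (0.987), Nkx2-2 (0.983) and Insm1 (0.966). Among the members, Neurog3 was most like Insm1 (0.974) and least like Fev (0.575).

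Fev lies beside the deleted gene. On mm10 with GENCODE annotation, Mir375 is at chr1:74900658-74900721 on the minus strand and is not a row of the matrices. Fev spans chr1:74881509-74885419 on the same strand, 15239 bp away, and Cryba2 lies between them, 7515 bp from Mir375. Cryba2 was at 180 and 283 CPM in EEC and at 8.69 and 13.4 CPM in progenitors, at 26.6 and 28.6 in tuft cells and at 0.103 and 0.374 in enterocytes, so like Fev it was higher in EEC than in these classes. Further out on that side, Cdk5r2 gave 5 and 4 UMIs in EEC and Wnt10a gave 0. Of the 10 annotated genes within 100 kb, 8 are in the matrices, and Ihh, at 50.9 and 37.4 CPM in enterocytes, showed another pattern. The remaining members are on other chromosomes, with Neurog3 and Rfx6 on chromosome 10 and Neurod1, Pax6, Nkx2-2 and Insm1 on chromosome 2.

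Some members share their locus with another gene. Cerkl overlaps Neurod1 on the same strand (14 and 1 UMIs in EEC), and the antisense gene Pax6os1 overlaps Pax6 (14 and 3). The strand setting of the counting is not given in the sources used here, so reads of these pairs may not be separated.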

How the data were processed

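Crypt cells of 2 375KO mice were profiled with 10x Genomics 3′ chemistry. The authors aligned reads to mm10 with Cell Ranger 3.0.1 and deposited UMI counts per gene and barcode. They removed doublets (scDblFinder) and cells with under 1500 genes or over 25% mitochondrial reads, whose percent they deposited, and clustered and named the cells in Seurat, for which the sources give differing versions. SoupX was used on files that are not stated. Annotations were joined to the matrices by cell order, and 3275 of 3275 cells matched in UMI totals. Left out were 2937 cell columns per table and 6059 barcodes of the doublet table, which are samples of another series.

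Counts were summed per mouse and annotated type, since cells are not replicates. No sum had fewer than 10 cells. The 18 sums of 9 epithelial types were filtered (filterByExpr), scaled (TMM) and fitted with edgeR 4.0.16 (robust quasi-likelihood, R 4.3.3), with type and mouse as terms and 8 residual degrees of freedom. Tests were two-sided with Benjamini-Hochberg adjustment over 11013 genes and a threshold of 0.05. The mouse pairs the sums, because each mouse gave every type. The authors named types from these same cells. DESeq2 1.42.0 was an alternative.

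CPM carry exact Poisson and shares Clopper-Pearson 95% intervals. For a count or share of 0 the limit printed is 3 counts or cells per library. Intervals and limits cover counting error only, and p values rest on 2 mice. In simulated data with 200 of 11013 genes changed 4-fold in EEC against secretory progenitors, 83 were recovered (41.5%).

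Members, lists and tests were chosen with earlier results of these data known. All 9 members were named, and from each list the 4 largest changes past the threshold plus genes that departed from the list. Neurod2 and the genes used to divide cells were named after their values were seen. The planned seed search for miR-375 and protein alignments were not run, because those sequences were not in the reference used here.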

Additional observations from a re-analysis of the deposited data

Results flagged for a closer look

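Barcodes that the authors did not keep also held UMIs of the 9 factors, in data that enter no comparison above. Barcodes called doublet held 58 such UMIs in replicate 1 (346 barcodes, 6.91 CPM) and 11 in replicate 2 (38 barcodes, 9.67 CPM). The other barcodes that were not kept held 64 in replicate 1 (5237 barcodes, 5.38 CPM) and 4 in replicate 2 (20 barcodes, 10.7 CPM). Kept cells held 43.3 and 50.8 CPM of the 9 factors, so the levels in the barcodes not kept were lower in both libraries.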

How the results depend on the processing

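Each class had 2 sums, with 20 to 54 EEC and 19 to 31 progenitors. In the simulation, which did not use the gene levels of these classes, a 4-fold change was often missed. Genes past the threshold numbered 1034 in EEC against secretory progenitors, 2464 in EEC against the other types and 641 in progenitors against the other types. With no replicate block, that is without the mouse as a term, they numbered 254, 1483 and 242, with 78.0%, 77.6% and 86.0% of calls higher against 57.1%, 61.4% and 66.1%. The pairing comes from the mouse, and the calls of Nkx2-2, Insm1 and Rfx6 were lost without it. Scaling by library totals gave 4527 genes in EEC against the other types and 2015 in progenitors against the other types, moved the median of all genes from 0.06, 0.02 and -0.04 to 0.24, 0.77 and 0.53 (log2), and moved the share of higher calls to 74.7%, 98.3% and 99.1%. The 9 members kept their directions in EEC against progenitors under it. Thinning to 5000 UMIs gave 395 genes in progenitors against the other types, 74.9% of them higher. The share of higher calls there was 78.5% under DESeq2 and 52.9% without cells of over 20000 UMIs or with IEL markers, an alternative chosen after seeing the data. The stricter cell filter (2000 genes, 15% mitochondrial) ended the call of Nkx2-2 (edgeR adjusted p = 0.055). In progenitors against the other types, 2 values that passed in no setting changed direction, Pax6 from 2.10 to -1.19 when thinned and Fev from -1.28 to 1.20 under DESeq2 (log2). With 1 mouse, untested, Isl1 there was at -0.61 without replicate 1 and Pax6 at -0.49 without replicate 2. Over 9 alternatives the 9 members kept their directions in the other comparisons. In EEC against secretory progenitors, members called numbered from 2 (DESeq2) to 8 of 9.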
